A study of Rattus norvegicus with 13 samples.

Results

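Of the 96640 windows in which a meiotic DNA double-strand break (DSB) hotspot was called in at least 1 rat library, 1722 autosomal windows had at most 0.5 times the wild-type signal in an SHR male with 1 functional Prdm9 copy. They were chosen by strength alone, from windows on chromosomes 1 to 20 with a strength of 40 or more in wild-type SHR. The strength in SHR KO/wt had to be at most 0.5 times that of wild-type SHR, the WKY strength 2 to 8 times it, and the KO/KO strength 20 or less. Without the condition on KO/wt, 13575 windows were eligible, so that 12.7% of them are the weakened windows described here and 11853 are not weakened. In 506 eligible windows, 3.73%, the KO/wt strength was instead 2 or more times that of wild-type. "Weakened" names this choice and is no result of a test.

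Meiotic recombination begins with DSBs made by SPO11, and in many mammals the zinc fingers of PRDM9 bind DNA and its PR/SET domain methylates histone H3 nearby, which places the breaks. When PRDM9 is missing, breaks occur at default sites, many of which are promoters that carry H3K4 trimethylation for transcription. DMC1 is the meiotic recombinase that coats the single-stranded DNA at a break, and single-stranded DNA sequencing (SSDS) of DMC1-bound DNA maps these breaks. Hotspot strength in such a map depends on how often breaks form at a site and on how long DMC1 stays there.

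Of the 13 samples of the study, 5 are DMC1 SSDS libraries of adult testis, 1 per condition, and their hotspots share 1 table. These are wild-type SHR/OlaIpcv (SHR, the spontaneously hypertensive rat), SHR with Prdm9+/- (KO/wt), SHR with Prdm9-/- (KO/KO), wild-type WKY (Wistar Kyoto) and wild-type BN/RIJHsd (BN, Brown Norway). The Prdm9 allele of WKY is that of SHR, and the BN allele is a different one. The deletions were made by injecting nuclease mRNA into fertilised SHR ova. Per the study the KO/KO male was homozygous for the truncating deletion KO39 and the wild-type SHR male was its littermate, while the deletion of the KO/wt male is not given in the sources used here. With 1 library per condition no difference between animals has a replicate check, no p-value is given, and intervals cover the counting of windows only. Depth in reads is unknown, and strength is a whole number of unstated scaling that can fall below 0.

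The lost stretch of the Prdm9 message is shown here because it separates the message of a functional copy from that of a KO39 copy. Per the study, the deletion in the genome also takes in part of an intron, so it is not the same stretch. The KO39 complementary DNA lacks 29 bases of the wild-type sequence, which shifts the reading frame ahead of the zinc fingers. The bases present only in wild-type are in capitals, and their placement could be shifted by up to 2 bases without changing either sequence.
wild-type SHR: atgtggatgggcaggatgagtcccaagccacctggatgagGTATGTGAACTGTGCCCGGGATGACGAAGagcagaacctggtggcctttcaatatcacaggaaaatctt
KO39: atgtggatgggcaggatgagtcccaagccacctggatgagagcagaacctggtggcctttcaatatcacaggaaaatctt

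The weakened windows were on the weak side among the eligible hotspots of the SHR and WKY allele. Their strength in wild-type SHR had a median of 58, against 90 in the other eligible windows. For the weakened windows the middle 50% lay between 47 and 81, with a range from 40 to 676. In KO/wt the median was 23, the middle 50% lay between 16.3 and 33, and the values ran from -10 to 324. Both columns chose the windows, so the difference between them is a description of the rule. The ratio of KO/wt to wild-type strength had a median of 0.397. It lay between 0.4 and 0.5 in 829 windows, or 48.1%, and at or below 0 in 11. These counts do not tell how many windows were without signal, because a strength of 0 is not the background level. The median KO/wt strength over all autosomal windows was 10. Of 520 weakened windows with KO/wt strengths from 10 to under 20, the authors called 3.85% as hotspots in KO/wt.

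In WKY the same windows had a median strength of 261, with the middle 50% from 182 to 366. In KO/KO the median was 3, and 90% of the values lay between -6 and 11. BN strength was the 1 strength column that the rule did not use. Its median at the weakened windows was 9 (binomial 95% interval of the median 8 to 9), and 90% of the values lay between -3 and 31. The eligible windows that were not weakened also had a median BN strength of 9 (9 to 9). BN strengths of 50 or more were found in 58 weakened windows, 3.37% (Wilson 95% interval 2.61 to 4.33%), and in 2.71% of the others (2.43 to 3.02%). The BN allele therefore gave like values at both sets, with overlapping intervals.

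**Figure D1:**
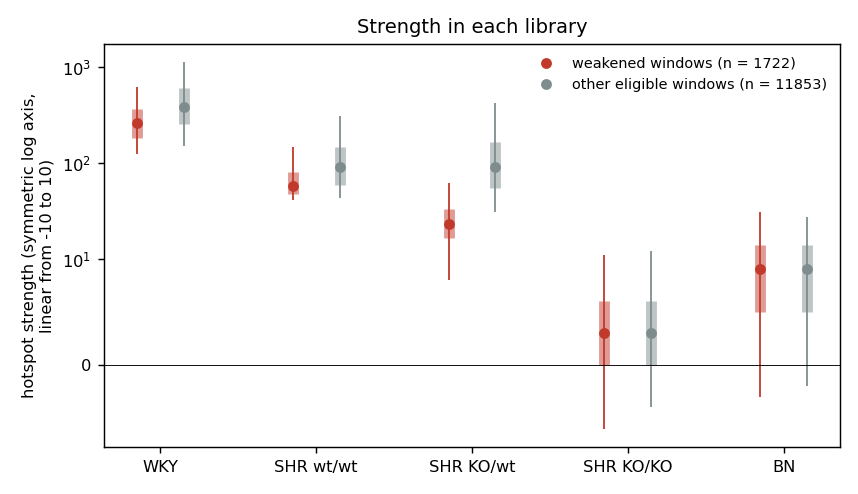
Hotspot strength (symmetric log axis, linear from -10 to 10) in the 5 libraries at weakened windows (red) and at other eligible windows (grey); points are medians, thick bars the middle 50% and thin bars 90% of the windows. The medians of the weakened windows were 261 in WKY, 58 in wild-type SHR (SHR wt/wt), 23 in KO/wt, 3 in KO/KO and 9 in BN, and those of the other windows 382, 90, 90, 3 and 9.

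The authors' own hotspot calls, which the rule did not use, were made separately in each library. Of the 1722 weakened windows, 1470 were called in wild-type SHR and 1598 in WKY, or 85.4% and 92.8%, against 90.6% and 95.7% of all eligible windows. A hotspot was called in KO/wt in 599 of them, 34.8% (32.6 to 37.1%), whereas 80.6% of all eligible windows were called there. The most frequent pattern, in 812 windows or 47.2% (44.8 to 49.5%), was a call in wild-type SHR and WKY and none in KO/wt, a pattern of 10.2% of all eligible windows. All 3 libraries called 571 windows, or 33.2%, beside 77.5% of all eligible windows. The rule's limit on KO/wt strength bears on each count that involves KO/wt calls. Calls were counted per window, so that a call at an overlapping window of the same site was not counted. Of the 252 weakened windows not called in wild-type SHR, 107 overlapped another window. In KO/KO 0 of 1722 were called, which allows a share of up to 0.174% when 3 counts are taken as the upper limit of a count of 0, beside 0.0368% of all eligible windows. The rule's limit on KO/KO strength bears on this count. BN calls were found in 51 windows, 2.96% (2.26 to 3.87%), beside 2.56% of all eligible windows.

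The KO/wt calls followed the KO/wt strength. At KO/wt strengths from 30 to under 40, 69.0% of 248 weakened windows were called (62.9 to 74.4%), and so were 66.2% of 932 windows that were not weakened (63.1 to 69.2%). At wild-type strengths from 40 to 59, 9.09% of weakened windows and 71.5% of the others were called in KO/wt, and at 120 or more the shares lay between 84.6 and 94.2% and between 94.3 and 95.6% (Wilson 95% intervals). At like KO/wt strength both sets were thus called about as often.

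A rule that asks for a high value in 1 library and a low value in another also picks windows by measurement error, an effect known as regression to the mean. Such picks are more frequent among weak windows. The share of eligible windows that were weakened was 23.4% at wild-type strengths from 40 to 59 (22.1 to 24.7%), 10.2% from 80 to under 120 (9.16 to 11.3%) and 1.56% from 200 to under 400 (1.04 to 2.33%). The ratio itself also changed with strength. Its median over all eligible windows was 0.773 in the weakest of these classes and 1.19 from 200 to under 400, so that a ratio of 0.5 lay closer to the middle of the weak hotspots than to that of the strong ones.

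The WKY library allows a look at the wild-type values by a measurement in another strain, once the condition on WKY is dropped. Then 2124 of 17380 windows, 12.2%, were weakened. A wild-type strength that is too high by error should give a low ratio of WKY to wild-type strength. At wild-type strengths from 40 to 59 this ratio had a median of 4.20 in 1115 weakened windows (4.06 to 4.39) and 4.91 in the others (4.83 to 5.02), that is, 0.857 times as much. From 120 to 199 the WKY ratio was 3.43 in 151 weakened windows (3.19 to 3.88) and 3.45 in the others (3.37 to 3.55), or 0.993 times as much. From 200 to under 400 it was 3.15 in 32 weakened windows (2.40 to 4.47) and 2.76 in the others (2.69 to 2.82), or 1.14 times as much. The weak windows hence had a lower WKY ratio, and those from 120 to 199 had a ratio within the interval of the others. From 200 to under 400 the order was the opposite, with overlapping intervals.

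The same comparison was made at like WKY strength, in 20 classes of windows called in WKY. The typical value was the median of all autosomal windows of the class with a KO/KO strength of 20 or less. Weakened windows had 1.41 times the typical wild-type strength (1.35 to 1.45), and the eligible windows that were not weakened had 1.35 times (1.33 to 1.36). The minimum of 40 places both sets high in wild-type strength. Their KO/wt strengths, 0.604 and 1.53 times the typical value, were split by the rule itself and bear on nothing further.

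Exchanging wild-type and KO/wt in the rule gave 629 windows that were weak in wild-type and strong in KO/wt, 6.14% of 10240, beside the 1722 weakened windows. The sizes of both sets depend on how the libraries are scaled. With KO/wt strength divided by 0.907, the ratio of the medians (68 and 75) over 17814 hotspots called in wild-type SHR and WKY, the numbers were 1254 and 905. Choosing windows by the mean of both strengths, which favours neither library, gave 774 with a KO/wt ratio of 0.5 or less and 614 of the opposite kind. After that scaling they were 514 and 926. The excess of weakened over strengthened windows in these selections was thus turned by this scale where the mean was used. The hotspots behind the scale had to be called in wild-type SHR, with no such condition on KO/wt, which favours high wild-type values. Summed strength over all autosomal windows was instead higher in KO/wt, at 3324708, than in wild-type SHR, at 2691262. A scale from these sums was not tried. How much of the KO/wt ratio at any 1 window is measurement error cannot be told apart from a difference between the animals.

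**Figure D2:**
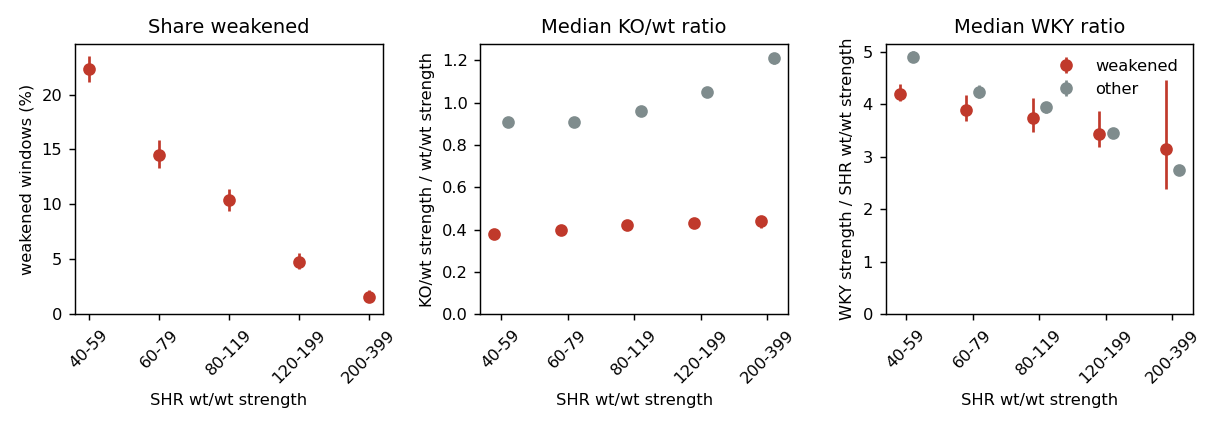
Share of windows weakened (left, with Wilson 95% intervals), median KO/wt ratio (middle) and median WKY ratio (right, both with binomial 95% intervals of the median) by strength in wild-type SHR, with no condition on WKY; red, weakened windows, grey, others. The share was 22.3% at 40 to 59 and 1.57% at 200 to under 400. The WKY ratios of weakened and other windows were 4.20 and 4.91 at 40 to 59 and 3.43 and 3.45 at 120 to 199. At 200 to under 400 they were 3.15 and 2.76.

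The strongest weakened hotspots lay on chromosome 1. The window chr1:239995968-239998968 of rn5 reached 676 in wild-type SHR and 1995 in WKY, with 324 in KO/wt and 2 in both KO/KO and BN. The window chr1:148470300-148473300 reached 616 and 2278 in the wild-type strains SHR and WKY, with 308 in KO/wt, 8 in KO/KO and 7 in BN. These 2 were called in WKY only, although their wild-type SHR strength exceeded that of every other weakened window. The next 3 also lay on chromosome 1 and were called in wild-type SHR, KO/wt and WKY. The strengths in these libraries, in this order, were 333, 154 and 1002 at chr1:150724506-150727506. They were 323, 156 and 1196 at chr1:185443693-185446693. At chr1:153130145-153133145 they were 305, 148 and 817, with -289 in BN. This negative value stood beside an overlapping BN hotspot of strength 3008, so strengths of overlapping windows are not independent. The strongest weakened window on another chromosome was chr17:81405833-81408833, with 264, 115 and 961 in the same order. All 6 had KO/wt ratios between 0.436 and 0.5, near the limit of the rule.

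Lower KO/wt ratios than at the strongest weakened windows were seen at weaker ones, but the rule itself used this ratio. The median KO/wt ratio of the weakened windows was 0.378 at wild-type strengths from 40 to under 60. It was 0.431 from 120 to under 200. Relative to the median of the other eligible windows of the same class, these were 0.420 and 0.413 times as much. The order of the medians is therefore no result about weak windows. The sites named next are extremes of the same ratio. They were taken from strengths of 100 or more, so weaker windows with lower ratios are not among them. Among windows of wild-type strength 100 or more, the lowest KO/wt ratio was 0.0769, at chr11:87589623-87592623, where wild-type SHR had a strength of 104, KO/wt one of 8 and WKY one of 380. It was called in both wild-type strains and not in KO/wt. The next was chr12:50846478-50849478, with 113, 21 and 622 in the same libraries and a ratio of 0.186. At chr14:3619700-3622700 the strengths were 197, 40 and 576, a ratio of 0.203, and it overlapped another weakened window and windows with strengths down to -110 in wild-type SHR. The remaining 2 were chr1:90091251-90094251, with 102, 22 and 663, and chr18:2447558-2450558, with 101, 23 and 224. All but the first of these 5 were still called in KO/wt.

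Activity under the other allele was high at a few weakened windows. The highest BN strength, 417, was at chr1:129276828-129279828, which was called in BN, wild-type SHR, KO/wt and WKY, the last 3 with strengths of 66, 25 and 323. The next 4 had BN strengths of 371 at chr4:66326428-66329428, 336 at chr1:229531246-229534246, 310 at chr4:245536184-245539184 and 303 at chr5:64903419-64906419. Each of these 4 overlapped another window of the table, in which BN strength was between 277 and 430, so that the values of such a pair are not independent. The windows chr1:229531246-229534246 and chr4:245536184-245539184 were called in BN and in no other library. The windows chr4:66326428-66329428 and chr5:64903419-64906419 were called in wild-type SHR and WKY and not in BN.

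The limits of the rule cut through a continuous range. A window at chr1:53503217-53506217 had the lowest admitted wild-type strength, 40, with 14 in KO/wt, and one at chr1:29677270-29680270, with 39 and 11, was left out. A KO/wt ratio of 0.5 was admitted at chr1:45396214-45399214 (46 and 23), and 0.501 was left out at chr7:133116982-133119982 (353 and 177). The WKY ratio left out 266 windows below 2, the closest at 1.99, and 136 above 8, the closest at 8.02. The limit on KO/KO left out 18, the closest with a KO/KO strength of 21.

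The weakened windows were spread over all 20 autosomes and unevenly so. Chromosome 20 had the highest share of its eligible windows weakened, 60 of 244, or 24.6% (19.6 to 30.4%). Chromosomes 14, 18 and 17 followed, with 17.1% (14.3 to 20.3%), 16.9% (13.6 to 20.8%) and 15.8% (12.7 to 19.4%). The lowest shares were 9.88% on chromosome 5 (8.12 to 12.0%), 9.92% on chromosome 10 and 10.5% on chromosome 8. Neighbours in this order had overlapping intervals. The intervals of 4 chromosomes lay above the share of 12.7% over all autosomes and those of 3, chromosomes 1, 5 and 10, lay below it. With a minimum strength of 80 chromosome 20 no longer stood highest, with 10.8% (6.44 to 17.7%) of 120 windows weakened, and chromosome 14 had 11.2% (8.30 to 15.1%) of 338. The KO/wt ratio of all eligible windows differed between chromosomes as well, with medians of 0.779 on chromosome 20 and 1.00 on chromosome 10. Wild-type strength was close on both, with medians of 78.5 and 86.

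**Figure D3:**
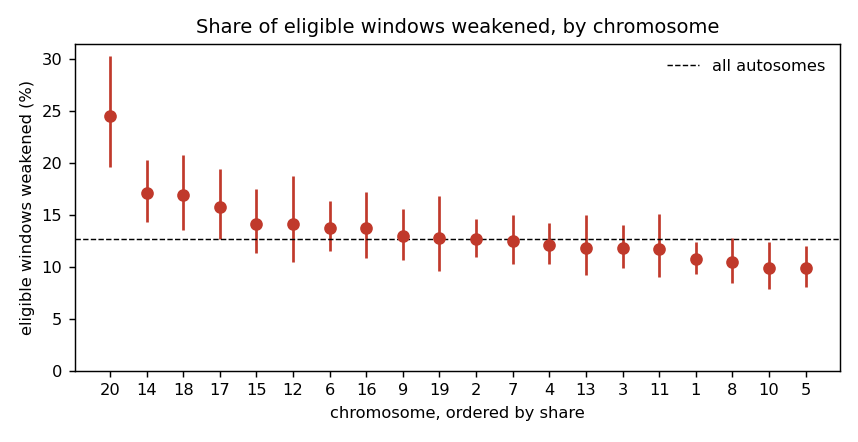
Share of eligible windows that were weakened on each of the 20 autosomes, ordered by share, with Wilson 95% intervals; the dashed line is the share over all autosomes, 12.7%. Chromosome 20 stood highest at 24.6% and chromosome 5 lowest at 9.88%.

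Toward the chromosome ends the weakened windows were more frequent. Between 2 and 20 Mb from the nearer end, 642 of 3309 eligible windows were weakened, or 19.4% (18.1 to 20.8%). At 20 Mb or more from both ends the share was 10.4% of 10029 (9.84 to 11.0%), a ratio of 1.86. The highest class was 5 to 10 Mb, with 22.1% (19.5 to 24.8%) and a share above the chromosome's own in 19 of 20 chromosomes. Within 2 Mb of either end the share was lower again, at 14.8% (10.8 to 19.8%) of 237 windows. Both ends showed the pattern, with 26.5% (21.4 to 32.2%) at 2 to 5 Mb from the first base and 21.6% (18.4 to 25.3%) at 5 to 10 Mb from the last window of the chromosome. The last window stood in for the end, since the length of the chromosomes was not used here.

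The share was higher near the ends at like strength too. Eligible windows had a median wild-type strength of 86 at 5 to 10 Mb from the nearer end and 85 at 50 Mb or more. At wild-type strengths from 40 to 59 the share weakened was 31.5% between 2 and 20 Mb and 20.4% farther inside. At 120 or more it was 7.17% (5.76 to 8.90%) and 2.26% (1.79 to 2.84%). The median KO/wt ratio of all eligible windows was 0.723 (0.690 to 0.752) at 5 to 10 Mb and 0.969 (0.954 to 0.985) at 50 Mb or more. Windows of wild-type strength 20 to 39, too weak for the rule, had a summed KO/wt strength of 0.690 times their summed wild-type strength at 5 to 10 Mb and 0.846 times at 50 Mb or more. In these weak windows the order was less regular, with 0.881 within 2 Mb of an end, 0.757 at 2 to 5 Mb and 0.756 at 20 to 30 Mb.

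**Figure D4:**
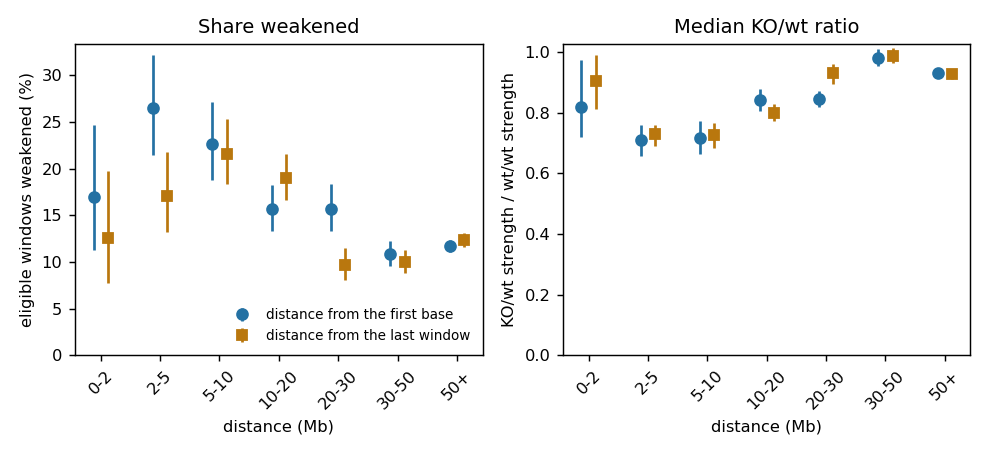
Share of eligible windows weakened (left, Wilson 95% intervals) and median KO/wt ratio of all eligible windows (right, binomial 95% intervals of the median) by distance from the first base (blue circles) and from the last window (orange squares) of the chromosome, in Mb. The share was 26.5% at 2 to 5 Mb from the first base and 10.9% at 30 to 50 Mb.

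Weakened windows also lay next to each other more often than other eligible windows did. The nearest eligible window was itself weakened for 383 of 1722 weakened windows, 22.2% (20.3 to 24.3%), and for 11.7% of the others (11.1 to 12.2%). Part of this comes from overlap, because windows under 3000 bp apart share signal and 108 of the 383 pairs were of this kind. With the nearest window at 3000 bp or more, the shares were 17.8% (15.9 to 19.7%) and 11.9% (11.3 to 12.5%). Under stricter limits fewer windows were weakened and the share for weakened windows was lower, at 13.9% with a minimum strength of 80 (6.25% of eligible windows weakened) and 13.1% with a KO/wt ratio of at most 0.4 (6.58% weakened). Density of hotspots was alike, with a median of 12 other eligible windows within 1 Mb for both sets. Of the weakened windows 397, or 23.1%, overlapped another window of the table, against 16.4% of the others. The 1722 windows covered 1667 separate stretches.

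In the order of eligible windows, 1163 of the weakened windows had no weakened neighbour on either side. Only 12.7% of eligible windows were weakened, so single windows are frequent under any scatter and the count is no measure of isolation. No expected count was computed. There were 176 runs of 2, 42 of 3, 14 of 4 and 5 of 5, and none was longer. A run of 5 on chromosome 14 reached from 3537012 to 3642395, with wild-type strengths from 43 to 197 and KO/wt strengths from 1 to 43. A second run of 5 on this chromosome, from 3047716 to 3231540, had 51 to 193 and 18 to 95. The third on this chromosome, from 108379618 to 109138948, had 40 to 162 and 15 to 68. The others lay on chromosome 4 from 238204841 to 238332724 (47 to 208 and 20 to 86) and on chromosome 17 from 7102887 to 7529674 (51 to 162 and 11 to 80). In the run on chromosome 4, 3 of the 5 windows overlapped each other and are 1 site by position, and in the run from 3537012 on chromosome 14, 2 of the 5 overlapped each other. WKY strengths in the 5 runs lay between 131 and 966, and those of KO/KO between -13 and 11. Some windows of the runs on chromosomes 14 and 17 also overlapped windows outside the runs that were called in KO/KO. The KO/KO strengths of those overlapping windows lay between 20 and 167, so that the values of such pairs are not independent.

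On the scale of 5 Mb the shares differed widely. Of 453 stretches of 5 Mb with at least 15 eligible windows, 25 had 30% or more of them weakened and 30 had none. The 25 stretches held 250 of 665 eligible windows as weakened. The first 5 Mb of chromosome 14 had the highest share, 19 of 30 windows or 63.3% (45.5 to 78.1%), where the median strength was 84 for wild-type SHR and 46 for KO/wt. Next came chromosome 20 from 20 to 25 Mb, with 10 of 21 windows and a median ratio of 0.508, and chromosome 14 from 105 to 110 Mb, with 17 of 37 windows and a median ratio of 0.527. Chromosome 20 from 15 to 20 Mb followed with 8 of 18. On chromosome 20 itself the shares ranged from these to 2 of 29 windows between 30 and 35 Mb.

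In most stretches with many weakened windows the other windows had lower ratios than elsewhere. The median KO/wt ratio of eligible windows that were not weakened, which the rule keeps above 0.5, ranged from 0.618 to 1.06 over the 25 stretches, with a median of 0.808, and its median over all 453 stretches was 1.00. It was 0.667 in the first 5 Mb of chromosome 14. The highest values were 1.06 on chromosome 18 from 70 to 75 Mb and 0.973 on chromosome 7 from 30 to 35 Mb. Close behind came 0.964 on chromosome 11 from 85 to 90 Mb and on chromosome 8 from 120 to 125 Mb. Chromosome 13 from 100 to 105 Mb had 0.954. Windows of wild-type strength 20 to 39, which the rule leaves out, had a summed ratio of 0.309 (12 windows) on chromosome 20 from 20 to 25 Mb and of 0.504 (23 windows) on chromosome 14 from 105 to 110 Mb. In the first 5 Mb of chromosome 14 it was 1.06 in 10 windows, so the weak hotspots there did not share the low ratio. In the 18 of the 25 stretches with at least 10 such windows, the median of the summed ratios was 0.637, against 0.781 over all 315 stretches with that many. Across 315 stretches with at least 10 such windows, their summed ratio and the median ratio of eligible windows had a Pearson correlation of 0.403 and a Spearman correlation of 0.383, which describes 2 sets of windows in the same pair of libraries.

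The default sites used without PRDM9 were more numerous where weakened windows were frequent. A default site was taken as an autosomal window called in KO/KO and in neither wild-type SHR nor WKY, which gave 35001 sites. Within 1 Mb of a weakened window the median number was 32 (31 to 33), and it was 28 (28 to 28) around other eligible windows. The share weakened was 6.91% with fewer than 10 default sites within 1 Mb (5.57 to 8.54%), 10.3% with 10 to 19, 11.9% with 20 to 29 and 15.1% with 30 or more (14.2 to 16.0%). At 20 Mb or more from the ends, the shares in the lowest and highest of these classes were 5.97% and 12.2%, and between 2 and 20 Mb they were 12.1% and 20.5%. Among windows at least 10 kb from any default site they were 6.91% and 14.9%, so the order was the same without windows close to a default site. Near the ends, the classes from 10 to 19 and from 20 to 29 had 18.7% and 17.9%, with overlapping intervals.

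The KO/wt signal at default sites was higher in the same stretches. At the 29859 default sites that overlapped no other window, KO/wt strength summed to 8.54% of KO/KO strength in the 193 stretches with under 10% of eligible windows weakened. It was 9.88% in 180 stretches with 10 to under 20%, 12.5% in 55 with 20 to under 30% and 15.3% in the 25 with 30% or more. A KO/wt hotspot was called at 2.85% (2.55 to 3.19%) of the default sites in the first group and at 12.1% (10.7 to 13.6%) in the last. The other libraries moved less, with 2.46% in the first group and 3.66% in the last for wild-type SHR. BN had 7.94 and 9.04%, and WKY had 18.9 and 20.9%. Default sites were defined by the lack of a call in wild-type SHR and WKY. This limits the values of wild-type SHR and WKY there, with no such limit on KO/wt or BN. Since the stretches were grouped by values of the same KO/wt library, both measures share its error and its animal. The cause was not tested.

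**Figure D5:**
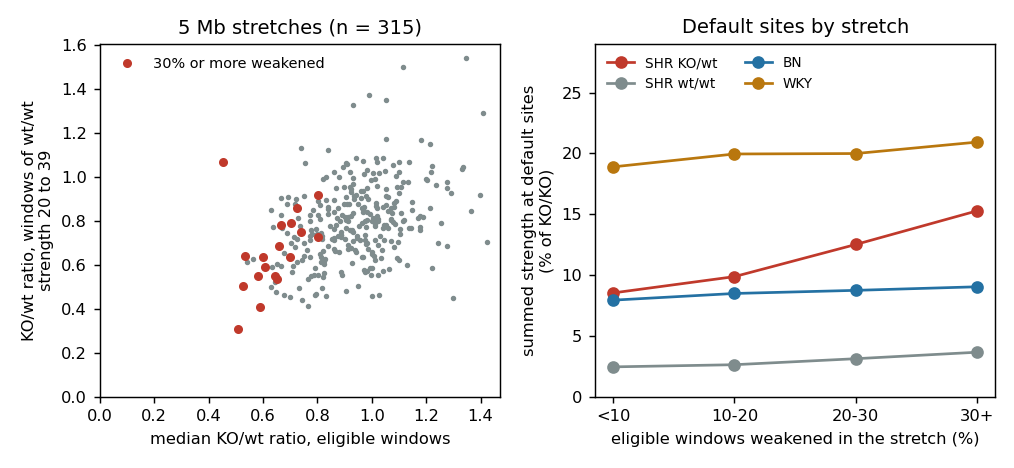
Left, KO/wt ratio in 315 stretches of 5 Mb for eligible windows (median, horizontal axis) and for windows of wild-type strength 20 to 39 (summed strengths, vertical axis); red points are stretches with 30% or more of eligible windows weakened. Right, summed strength of 4 libraries at default sites that overlap no other window, in percent of KO/KO strength, by the share of eligible windows weakened in the stretch. KO/wt stood at 8.54% in the first group and at 15.3% in the last.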

How the data were processed

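DMC1-bound single-stranded DNA of adult rat testes was sequenced by the authors. Reads were aligned to rn5 with a modified BWA 0.7.12, and hotspots were called from uniquely mapping type 1 fragments. The submitters' processing notes also name bedtools 2.23.0 and MACS2 2.1.0.20150420. The deposited table gives for 96640 windows, 96639 of them 3000 bp long, a score per library, the hotspot strength, and a mark for a called hotspot. How the authors computed or scaled this score is not given in the sources used here, and depth is unknown. Coordinates are printed as deposited.

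Each of the 5 libraries was matched by strain and genotype. Other samples of the series were not analysed here. Members, lists and comparisons were chosen with earlier results of these data known. Windows were selected by the rule given in the report. Shares carry Wilson 95% intervals and medians binomial intervals. With 1 library per condition no test was made. Computation used Python 3.11.15 with scipy 1.17.1, numpy 2.4.6 and pandas 2.3.3, and figures matplotlib 3.10.9. The functions were tested on a simulated table of 5000 windows and recovered 12 of 12 known answers. Named sites were the 6 strongest members, the 5 of lowest ratio at a wild-type strength of 100 or more, the 5 of highest BN strength, the longest runs (the rule asked for 2, and 5 were tied) and windows nearest each limit. Alternatives were a minimum of 80, windows without overlap, a common scale, called windows, no WKY condition and a ratio of 0.4. Comparisons by chromosome end and by default site were added after the data were seen. No genome or annotation of rn5 was used, so genes and window sequences are not given.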

Additional observations from a re-analysis of the deposited data

Results flagged for a closer look

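Chromosome X lies outside the rule and is given here only because its windows entered no comparison above. On it, 175 of 1248 windows that met the other conditions had a KO/wt strength of at most 0.5 times wild-type. This was 14.0% (Wilson 95% interval 12.2 to 16.1%), beside an autosomal share of 12.7% that is not at like strength. In the 175 windows the median strength was 76 for wild-type SHR, 27 for KO/wt and 376 for WKY. All eligible X windows had a median KO/wt ratio of 0.852 and a median wild-type strength of 189.5. The autosomal share was 4.85% at wild-type strengths from 120 to under 200 and 1.56% from 200 to under 400. The study describes a scaling of X strength for the single X of males, and whether the deposited values include it is not given in the sources used here.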

How the results depend on the processing

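Other settings gave 49 values, of which 27 lay inside the interval around the reported one and 22 lay outside. For the number of windows in the mirrored selection, which has no such interval, a value within 1.5 times counted as inside. Alternatives for the share near the ends were added after the data were seen. With a minimum strength of 80, 6.25% of eligible windows were weakened in place of 12.7%, the median KO/wt ratio was 0.429, 81.6% were called in KO/wt, the WKY ratio was 3.66 in place of 3.99, the mirrored selection had 250 windows, the highest chromosome share was 11.2% on chromosome 14, 13.9% had a weakened nearest window, and the share near the ends was 2.53 times that inside. In windows without overlap the share weakened was 11.8%, and 16.5% had a weakened nearest window. With KO/wt on the scale of wild-type, 9.24% were weakened, 27.4% were called in KO/wt, the share on chromosome 20 was 18.4% and that of weakened nearest windows 16.9%. In windows called in wild-type SHR (called in KO/wt for the mirrored selection), these values were 12.0% weakened, 40.1% called in KO/wt and 17.6% with a weakened nearest window. At a KO/wt ratio of at most 0.4 they were 6.58%, 21.3% and 13.1%. Mean BN strength was 12.8, and summed WKY over summed wild-type strength was 4.23. Stricter limits leave fewer windows by construction. The share near the ends stayed between 1.77 and 2.53 times that inside under every alternative run for it, the lowest without chromosomes 14 and 20. No paired analysis was possible because each genotype had a single DMC1 library and no result came from a test. With depth unknown, no window has an error of its own.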
